A study of Sus scrofa with 2 samples.

Results

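The genes described here encode potassium channels, their auxiliary subunits and a few regulators that share the symbol prefix KCN. They were taken as every row of the count tables whose symbol begins with KCN and that held at least 20 unique molecular identifiers (UMIs, one per captured transcript) over both tables. Of 91 such rows, 67 met the minimum, among 16259 rows of any name that did and 25880 rows listed. The rows just outside were KCNS1, KCNJ1 and KCNJ14 with 10, 11 and 12 UMIs, and those just inside were KCNJ5 and KCNK3 with 21 each and KCNQ1OT1_3 with 23. The 67 rows held 87917 UMIs in all. By family they comprised 6 KCNA, 6 KCNB, KCNG and KCNS, 4 KCNC, 3 KCND, 6 KCNH and 5 KCNQ genes of voltage-gated channels. A further 8 KCNJ genes encode inward rectifiers, 9 KCNK genes 2-pore-domain leak channels, 5 KCNMA, KCNMB and KCNU genes and 4 KCNN genes mostly calcium-activated channels, and 1 KCNT gene a sodium-activated channel. The remaining 9 were the auxiliary KCNAB, KCNE, KCNIP and KCNRG genes and 1 row of KCNQ1OT1, a noncoding RNA transcribed from within KCNQ1.

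Potassium channels let potassium leave or enter a cell along its gradient, and so set the resting potential, end action potentials and limit repetitive firing in neurons. In epithelia and glands they recycle potassium and provide the electrical driving force for chloride secretion through channels such as CFTR. In glia, inward rectifiers take up the potassium that firing neurons release. Which of these channels a cell makes therefore differs between neurons, secretory cells and glia.

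Nuclei were isolated from the frozen olfactory mucosa of newborn pigs (Sus scrofa), labelled as olfactory neuroepithelium, and sequenced after droplet capture. One group was a wild type piglet and the other a piglet with a knockout of CFTR, the chloride channel gene mutated in cystic fibrosis, with 1 library each. Both carried no other labelled treatment, and the labels do not name the knockout allele. With 1 library per genotype no difference was tested, every comparison below is between these libraries and not between genotypes, and all intervals are 95% intervals that cover counting error only.

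Filtering left 4536 nuclei and 17249149 UMIs (median 2967 per nucleus) in the wild type library, and 5761 nuclei and 15142882 UMIs (median 2093) in the knockout library. The libraries shared 8 barcodes. CFTR had 1497 UMIs in the wild type and 193 in the knockout library, a ratio of the counts scaled to 1e6 UMIs (CPM) of 0.147 (0.126 to 0.171). Nuclei were clustered without any KCN gene, CFTR or mitochondrial transcript, so the channel genes did not define the clusters. The 16 populations compared are 15 classes named from marker genes and written with "-like", and cluster 22, which expressed respiratory secretory cell genes and stayed unnamed. Cluster 22 also had the basal cell marker KRT14 raised and TP63 among its top genes. At resolution 2 there was a secretory cluster of 23 wild type and 247 knockout nuclei. A further cluster there, with KRT5 and KRT14 raised, held 25 and 196. Levels in cluster 22 are therefore not assigned to secretory cells. The markers of mature olfactory neurons, 11 of which were in the tables, summed to 3875 and 3024 CPM in the mature neuron-like nuclei of the wild type and knockout libraries and to between 413 and 1375 CPM in every other population. Of the wild type nuclei 20.1% were immature neuron-like, against 9.70% of the knockout nuclei, and the shares of mature neuron-like nuclei were 19.4% and 15.7%. Respiratory ciliated-like nuclei made up 0.705% and 8.002%, and cluster 22 made up 1.01% and 7.55%. Nuclei of 2 shallow clusters, 212 wild type and 944 knockout, belonged to no population.

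Most of the channel genes with a clear carrier had 1 or 2 of them. A gene is called raised in a population where its CPM, with 5 CPM added, was at least 4 times the median of the other populations in each library, with at least 5 UMIs there in each. By that rule 24 of the 67 genes (35.8%) were raised somewhere, against 18.9% of all 16259 genes. Of the 24, 12 were raised in 1 population, 9 in 2 and 3 in more. The count was 41 with a fold of 2, 11 with a fold of 8 and 13 with 20 CPM added. Of the 39 raised pairs of gene and population, 12 no longer met the rule under 1 or more of 6 other clusterings or filters of nuclei. These were KCNN3 in precursor-like nuclei (under 5 of the 6), KCNG2 in microvillar-like nuclei (4), KCNN2 in mature neuron-like, KCNA6 in immature neuron-like and KCNQ5 in fibroblast-like nuclei (3 each) and KCNA6 in mature neuron-like nuclei (2). The other 6, each lost under 1, were KCNH7 and KCNK10 in precursor-like, KCNH8 in immature neuron-like, KCNH3 in mature neuron-like, KCNN2 in sustentacular-like and KCNA6 in glia-like nuclei. A pair could be lost only where its population was found again by name. That held for 34 of the 39 pairs at resolution 0.5, 37 at resolution 2 and 38 under each of the others. KCNC2 in cluster 22 could be checked under none, so pairs not listed were not all checked 6 times. The population with the highest level was the same in both libraries for 33 of the 67 genes (49.3%), against 39.5% of all genes. It was the same for 22 of the 40 with at least 100 UMIs, a minimum at which the share of all genes was not computed.

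Neurons and glia carried the most raised channel genes. In mature neuron-like nuclei 8 of the 67 were raised (3.35% of all genes were), in immature neuron-like nuclei 6 (2.43%), in precursor-like nuclei, the globose basal cells and neuronal precursors, 5 (1.96%), and in glia-like nuclei 6 (2.75%). Bowman gland-like (1.49%), microvillar-like (0.781%), sustentacular-like (1.01%) and macrophage-like nuclei (2.26%) had 2 each. Fibroblast-like (2.43%), horizontal basal-like (0.775%), nasal gland-like (1.27%), pericyte-like (1.51%) and respiratory ciliated-like nuclei (2.99%) and cluster 22 (0.8%) had 1 each. No channel gene was raised in endothelial-like (2.09%) or lymphatic-like nuclei (1.78%), where the 67 genes together had 824 and 1336 CPM in the wild type and 897 and 888 CPM in the knockout library. The summed level was highest in microvillar-like nuclei in the wild type library, at 3977 CPM, and in mature neuron-like nuclei in the knockout library, at 3591 CPM.

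**Figure D1:**
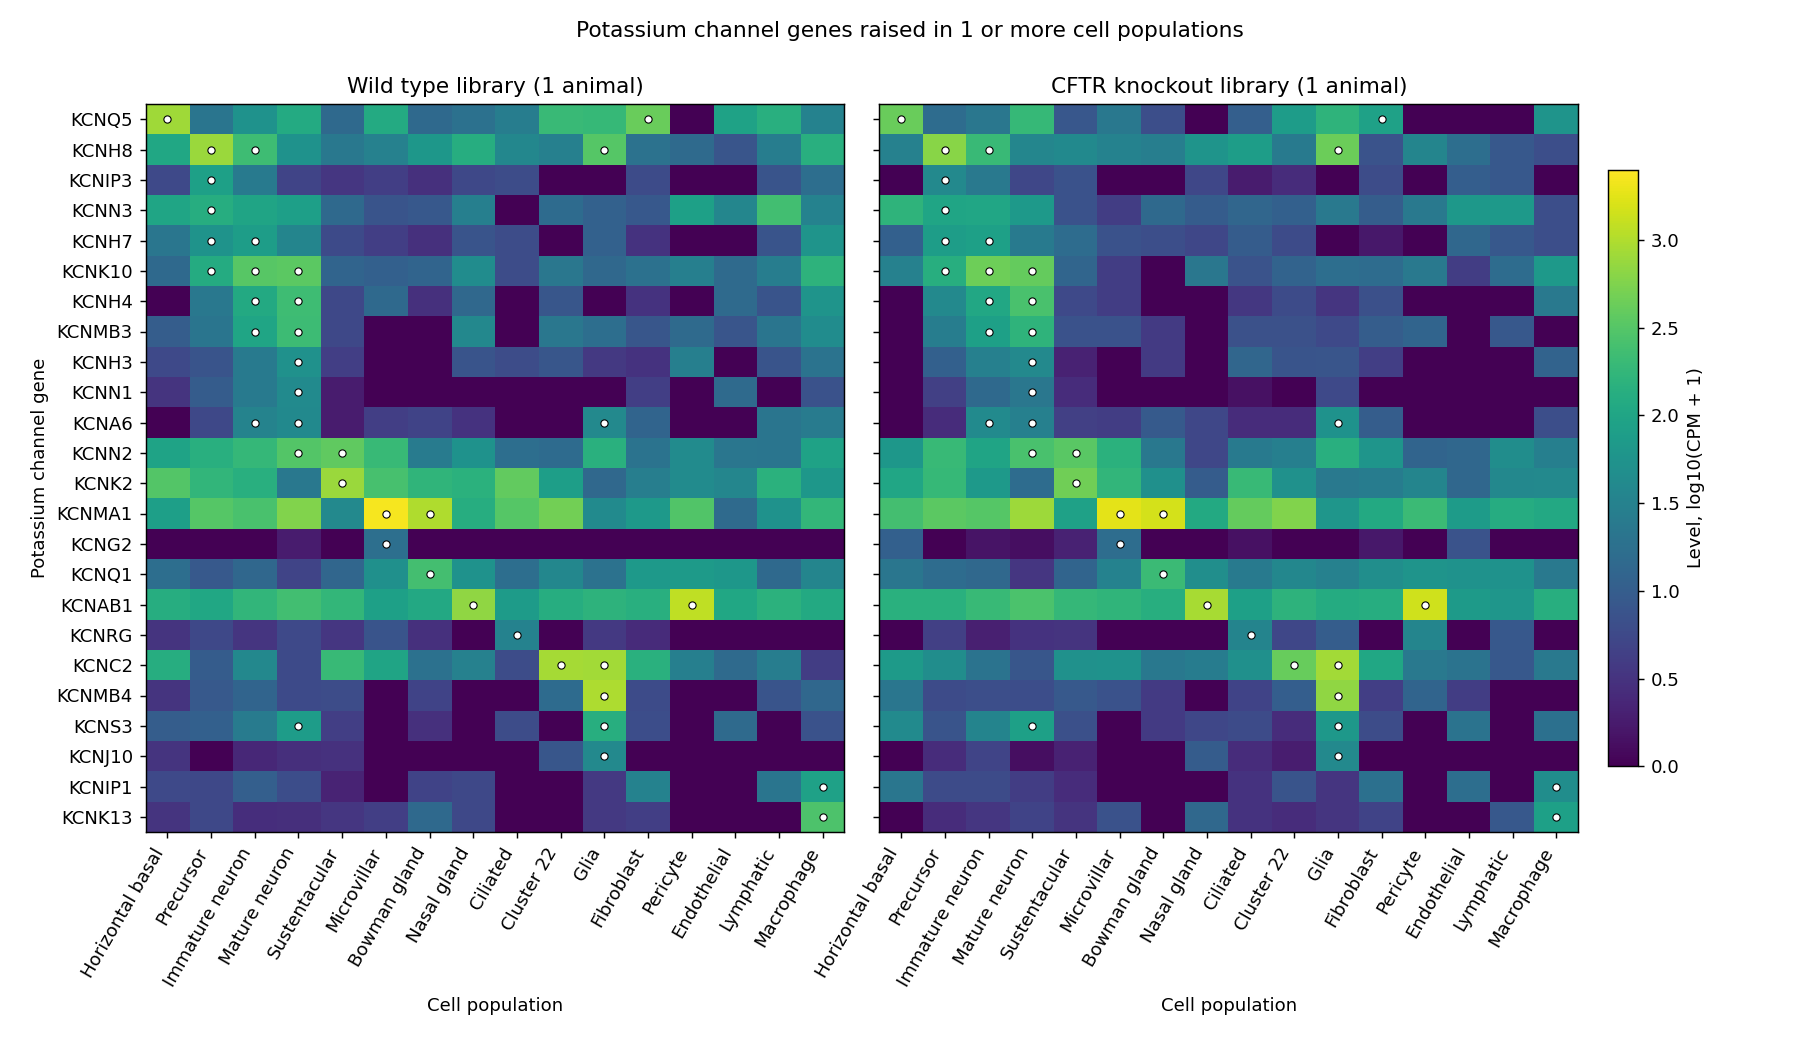
Level of the 24 raised potassium channel genes (rows) in the 16 cell populations (columns) of the wild type library (left) and the CFTR knockout library (right), as log10(CPM + 1), with white dots where a gene was raised in both libraries. Colours compare populations within a row, since levels were not divided by gene length. The mature neuron-like column holds 8 dots, the immature neuron-like and glia columns 6 each, and the endothelial and lymphatic columns none.

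KCNMA1, the pore of the large-conductance channel that opens with both calcium and depolarisation, was highest in microvillar-like nuclei in each library, a class named from genes of microvillar cells and ionocytes. Its level there was 2233 CPM (2067 to 2409) in the wild type and 1794 CPM (1650 to 1946) in the knockout library, and 53 of 53 and 61 of 64 nuclei had a UMI of it. After each nucleus was thinned to 1000 UMIs, 86.5% and 79.7% did, against 3.69% and 7.36% of sustentacular-like nuclei. The median depths were 4022 and 2830.5 UMIs in microvillar-like and 2677 and 2549.5 UMIs in sustentacular-like nuclei. Bowman gland-like nuclei, the mucus glands beneath the epithelium, followed with 986 CPM (903 to 1076) and 1502 CPM (1379 to 1633). Mature neuron-like nuclei had 567 CPM (543 to 592) and 806 CPM (773 to 840), which was below the 4-fold rule because the gene was present in most populations, with medians of 222 and 224 CPM. The lowest levels were 13.96 CPM in endothelial-like nuclei of the wild type library and 59.9 CPM in glia-like nuclei of the knockout library.

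The auxiliary subunits of that channel had carriers of their own. KCNMB4, the subunit best known from brain, was raised only in glia-like nuclei, the ensheathing and supporting glia, at 944 CPM (849 to 1047) in the wild type and 677 CPM (602 to 759) in the knockout library, while its medians over the populations were 4.88 and 5.17 CPM. A UMI of it was found in 73.5% and 63.7% of glia-like nuclei (median depths 2384 and 2089 UMIs), and in 1.60% and 2% of sustentacular-like nuclei. The pore gene KCNMA1 stood at only 42.0 CPM (24.0 to 68.1) and 59.9 CPM (39.1 to 87.7) in the same glia. KCNMB3 was raised in mature neuron-like nuclei, at 211 CPM (196 to 226) and 161 CPM (146 to 176), and in immature ones at 99.7 and 85.3 CPM, and it overlaps an unnamed RefSeq gene. KCNMB1, the smooth muscle subunit, had 29 UMIs in all and its highest level in pericyte-like nuclei, with 2 UMIs in each library (28.2 and 22.7 CPM), and it lies inside KCNIP1. KCNU1, a relative of KCNMA1 known from sperm, had 55 UMIs and no carrier shared by both libraries.

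Among the small-conductance calcium-activated channels, which respond to calcium alone, KCNN2 was highest in sustentacular-like nuclei, the support cells of the epithelium, at 371 CPM (348 to 396) in the wild type and 336 CPM (310 to 365) in the knockout library. Mature neuron-like nuclei had 305 CPM (287 to 323) and 268 CPM (249 to 288), and both populations met the rule. Mature neuron-like nuclei did not meet it for KCNN2 at resolution 0.5, with at least 500 genes per nucleus or with doublets kept, and sustentacular-like nuclei did not with doublets kept. KCNN1 was raised in mature neuron-like nuclei, at 40.8 CPM (34.6 to 47.9) and 21.5 CPM (16.5 to 27.7), against medians of 0.405 and 0 CPM over the populations. Immature neuron-like nuclei followed with 24.1 and 13.5 CPM. KCNN3 was raised in precursor-like nuclei, at 130 CPM (108 to 156) and 97.4 CPM (74.0 to 126), close to the threshold in the wild type library with a log2 excess of 2.01. Its highest level lay elsewhere and differed between the libraries, at 234 CPM in lymphatic-like nuclei of the wild type library and 163 CPM in the horizontal basal-like class of the knockout library. KCNN4, the intermediate-conductance channel of epithelia and blood cells, had 43 UMIs and reached at most 3.86 CPM in wild type and 5.62 CPM in knockout nuclei.

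KCNT2, the sodium-activated channel gene, was found in neurons, glia, fibroblasts and pericytes, among others, and raised in no population. It stood at 210 CPM (196 to 226) and 165 CPM (150 to 180) in mature neuron-like nuclei, 157 CPM (120 to 203) and 200 CPM (160 to 247) in glia-like nuclei and 142 CPM (125 to 161) and 124 CPM (107 to 142) in fibroblast-like nuclei. Pericyte-like nuclei, with 7 and 17 UMIs, had 98.9 CPM (39.8 to 204) and 193 CPM (112 to 309). Sustentacular-like nuclei had 6.48 CPM (3.70 to 10.5) and 8.01 CPM (4.38 to 13.4). The RefSeq span given for KCNT2 covers several other coding genes, so its reads are uncertain.

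The KCNH family, voltage-gated channels named after the Drosophila gene ether-a-go-go, differed in its members along the neuronal series. KCNH8 was highest in precursor-like nuclei, at 781 CPM (724 to 841) in the wild type and 632 CPM (569 to 699) in the knockout library. It stood at 220 and 199 CPM in immature neuron-like nuclei and at 52.7 and 34.9 CPM in mature ones, and glia-like nuclei carried it too, at 317 CPM (263 to 379) and 438 CPM (378 to 504). Precursor-like nuclei had a KCNH8 UMI in 73.7% and 64.1%, or 45.1% and 42.6% after thinning, with median depths of 4085 and 3964 UMIs. In sustentacular-like nuclei the thinned shares were 2.05% and 2.63%. KCNH4 ran the other way, from 116 CPM (107 to 126) and 110 CPM (95.7 to 125) in immature to 220 CPM (205 to 235) and 267 CPM (248 to 287) in mature neuron-like nuclei, with 0 and 1 UMIs in glia-like nuclei.

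KCNH7 was raised in precursor-like nuclei, at 54.5 CPM (40.3 to 72.1) and 77.3 CPM (56.6 to 103), and in immature neuron-like nuclei, at 76.6 CPM (69.1 to 84.7) and 84.8 CPM (72.5 to 98.5). Its span overlaps GCA, whose levels had medians of 15.9 and 14.4 CPM. GCA was highest in sustentacular-like nuclei of the wild type library, at 29.6 CPM, and in precursor-like nuclei of the knockout library, at 40.3 CPM. The part of GCA reads in the level of KCNH7 in precursor-like nuclei was not tested. KCNH3 was raised in mature neuron-like nuclei, at 50.8 CPM (43.8 to 58.6) and 38.8 CPM (31.9 to 46.8). KCNH5 was also highest there in both libraries, at 50.3 CPM (43.3 to 58.0) in the wild type but 13.4 CPM (9.49 to 18.4) in the knockout library, and it did not meet the rule in the latter. KCNH2, the gene of the cardiac delayed rectifier, had 58 UMIs and its highest level in precursor-like nuclei in both libraries, at 7.79 and 10.1 CPM.

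Along the 5 clusters of the neuronal series the order of these genes could be followed more closely. The series ran from cluster 11 (precursor-like) over clusters 2 and 10 (immature) to clusters 5 and 6 (mature), of which cluster 5 held most mature nuclei of the wild type library (742 against 49) and cluster 6 most of the knockout library (855 against 136). KCNH8 was at 781 and 632 CPM in cluster 11 and below 250 CPM in all later clusters. KCNIP3, a calcium-binding partner of KCND channels, was at 83.4 CPM (65.6 to 105) and 38.6 CPM (24.5 to 58.0) in cluster 11, at 30.4 and 61.2 CPM in cluster 2, at 16.3 and 13.5 CPM in cluster 10 and below 10 CPM in clusters 5 and 6. KCNMB3 stood at 20.0 and 26.9 CPM in cluster 11 and at 216 and 225 CPM in cluster 5. KCNH4 gave 217.8 and 262.2 CPM in cluster 5 and 239.9 and 267.3 CPM in cluster 6, so both mature clusters lay above the 84.5 and 61.2 CPM of cluster 2. KCNMA1 stood at 568 and 870 CPM in cluster 5 and 559 and 800 CPM in cluster 6, and the intervals of the libraries did not overlap in either.

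**Figure D2:**
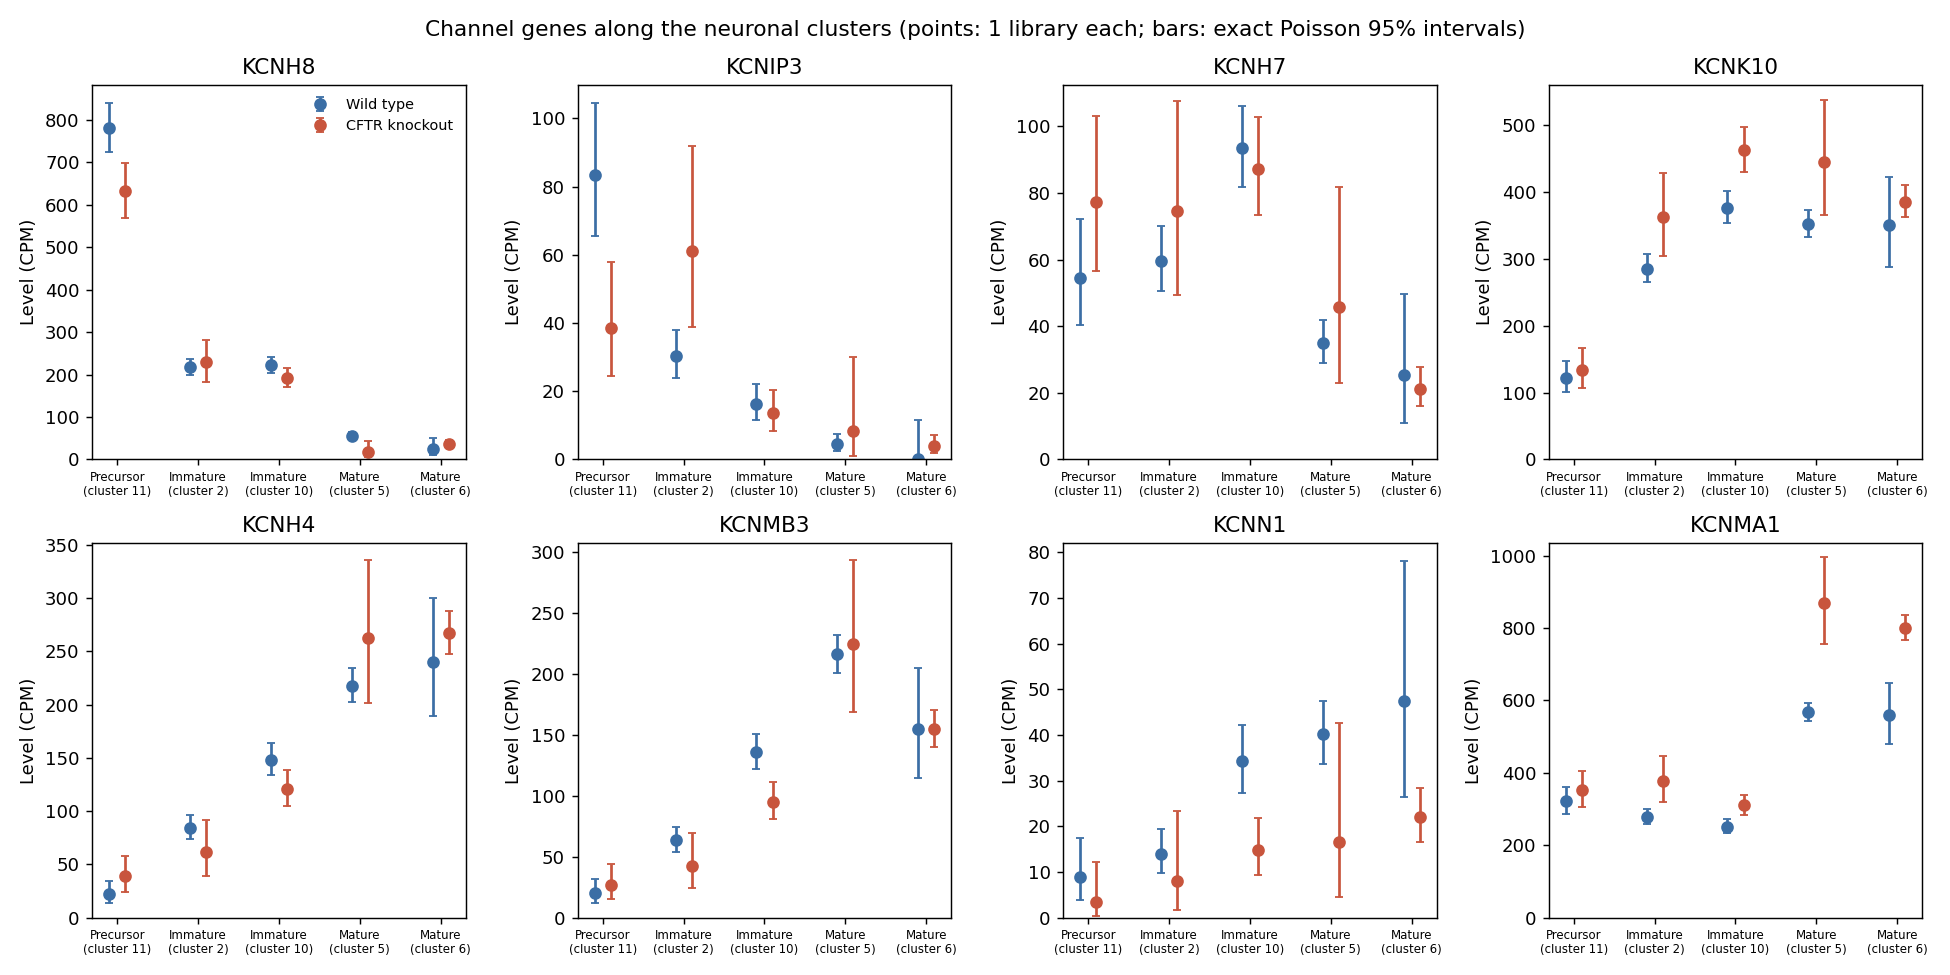
Level in CPM (vertical axis, starting at 0) of 8 channel genes in the 5 clusters of the neuronal series (horizontal axis), with 1 point per library (blue wild type, red CFTR knockout) and exact Poisson 95% intervals. KCNH8 was highest in the precursor-like cluster, KCNH7 and KCNK10 had their highest points in immature cluster 10 in both libraries, and KCNH4, KCNMB3 and KCNMA1 were highest in the mature clusters.

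Of the KCNQ channels, which carry slow potassium currents, KCNQ5 was highest in horizontal basal-like nuclei, the reserve stem cells of the epithelium, at 825 CPM (742 to 914) in the wild type and 418 CPM (300 to 567) in the knockout library. A UMI of it was found in 76.9% and 57.9% of these 108 and 38 nuclei (median depths 2765 and 2002.5 UMIs), and in 3.20% and 2% of sustentacular-like nuclei. Fibroblast-like nuclei had 415 CPM (386 to 446) and 87.2 CPM (73.0 to 103), and within them cluster 18 carried the gene, with 1004 CPM (932 to 1080) and 345 CPM (283 to 416), against 47.5 and 21.4 CPM in the larger cluster 16. Cluster 18 had 4 raised fibroblast markers but also 3 of cartilage or bone cells (MATN4, RUNX2 and IBSP), so its name is less certain. KCNQ1, which with KCNE subunits forms the basolateral channel of secretory epithelia, was raised in Bowman gland-like nuclei alone. It stood there at 243 CPM (203 to 290) and 205 CPM (161 to 257), and 47.1% and 32.1% of these nuclei had a UMI of it (median depths 3083 and 1779 UMIs), against 1.59% and 0.774% of mature neuron-like nuclei, which were deeper.

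KCNQ3 had its highest level in glia-like nuclei of the wild type library, at 47.2 CPM (28.0 to 74.6), where the knockout library had 1 UMI, and in macrophage-like nuclei of the knockout library, at 44.9 CPM (19.4 to 88.6), and it overlaps HHLA1. KCNQ1OT1_3 reached 6.98 and 4.32 CPM. Since the sources used here do not say whether strand was counted, its reads cannot be told apart from those of KCNQ1.

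In the KCNC family, fast delayed rectifiers known from rapidly firing neurons, KCNC2 was highest in glia-like nuclei and cluster 22, and stood at 4.86 and 7.06 CPM in mature neuron-like nuclei. Glia-like nuclei had 842 CPM (752 to 939) in the wild type and 850 CPM (765 to 941) in the knockout library, and cluster 22 had 878 CPM (730 to 1049) and 409 CPM (374 to 447). A UMI of it was found in 58.1% and 55.5% of glia-like nuclei and in 1.71% and 2.21% of mature neuron-like nuclei, whose median depths of 3745 and 2868 UMIs were the greater. KCNC4 was highest in mature neuron-like nuclei of the wild type library, at 53.2 CPM (46.1 to 61.2), where the knockout library had 32.1 CPM (25.9 to 39.4). KCNC1 had 54 UMIs, and its level in endothelial-like nuclei was 6.98 CPM (0.177 to 38.9) from 1 UMI in the wild type and 22.1 CPM (8.89 to 45.5) from 7 UMIs in the knockout library. The wild type level lay within counting error of the next, 6.67 CPM in microvillar-like nuclei.

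KCND2, a channel of the transient A-type current, was broad. Its highest level was in cluster 22 in the wild type library, at 209 CPM (140 to 300), and in microvillar-like nuclei in the knockout library, at 118 CPM (83.4 to 162). Sustentacular-like nuclei had 186 CPM (170 to 204) and 71.5 CPM (59.5 to 85.2), immature neuron-like nuclei 178 CPM (166 to 190) and 95.2 CPM (82.2 to 110), and Bowman gland-like nuclei 7.72 and 5.47 CPM. KCND3, with 38 UMIs, was highest in nasal gland-like nuclei in both libraries, at 24.1 CPM (12.0 to 43.1) and 8.63 CPM (1.05 to 31.2). KCND1, with 30 UMIs, stayed at or under 5.24 CPM.

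Of the 6 KCNA genes, the Shaker-type channels of axons, KCNA6 had the most UMIs, 658. It was raised in mature neuron-like nuclei, at 40.5 CPM (34.3 to 47.6) and 29.6 CPM (23.6 to 36.7), in immature ones, at 32.1 and 40.9 CPM, and in glia-like nuclei, at 39.3 CPM (22.01 to 64.9) and 53.0 CPM (33.6 to 79.5). KCNA1 was highest in ciliated-like nuclei in both libraries, from 5 and 27 UMIs, at 26.2 CPM (8.51 to 61.2) and 11.4 CPM (7.49 to 16.5). KCNA2, KCNA4, KCNA5 and KCNA7 had between 29 and 84 UMIs and shared no highest population between the libraries. KCNA7 lies inside NTF4, so its 56 UMIs are uncertain.

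The KCNB, KCNG and KCNS genes include channels that conduct and silent subunits that only modify them. KCNS3, a silent subunit, was raised in mature neuron-like nuclei, at 75.7 CPM (67.1 to 85.1) and 85.1 CPM (74.7 to 96.5), and in glia-like nuclei, at 134 CPM (99.6 to 176) and 64.5 CPM (42.8 to 93.2). KCNG2, another silent subunit, was seen above all in microvillar-like nuclei, but from 5 UMIs in each library, at 16.7 CPM (5.41 to 38.9) and 15.5 CPM (5.04 to 36.2). KCNG1 was highest in mature neuron-like nuclei in both libraries, at 10.00 and 10.2 CPM, and KCNB2 likewise at 3.78 and 2.82 CPM. KCNG3 reached 5.24 CPM in glia-like nuclei of the wild type and 19.4 CPM in sustentacular-like nuclei of the knockout library.

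The KCNK genes encode leak channels that stay open at rest. Those with most UMIs, KCNK10 and KCNK2, were highest in neuron-like and in sustentacular-like nuclei respectively. KCNK10, a channel gated by stretch and lipids, stood at 331 CPM (315 to 347) and 444 CPM (415 to 474) in immature and 352 CPM (333 to 372) and 390 CPM (368 to 414) in mature neuron-like nuclei, and was raised in precursor-like nuclei too, at 122 CPM (101 to 147) and 134 CPM (107 to 167). Its close relative KCNK2 was highest in sustentacular-like nuclei, at 767 CPM (733 to 802) and 459 CPM (428 to 492), where KCNK10 had 11.3 and 12.0 CPM. KCNK2 in turn had 22.2 and 14.8 CPM in mature neuron-like nuclei. It was not absent from the earlier neuronal stages, with 139 and 67.8 CPM in immature neuron-like nuclei. In precursor-like nuclei it had 172 and 190 CPM, more than KCNK10 had there. The thinned shares of nuclei with a UMI were 41.0% and 32.8% for KCNK2 in sustentacular-like nuclei, against 2% and 1.37% in mature neuron-like nuclei. For KCNK10 they were 27.5% and 32.8% in mature neuron-like nuclei, against 0.958% and 1.05% in sustentacular-like nuclei. Ciliated-like nuclei came next for KCNK2, at 377 CPM (295 to 475) and 197 CPM (180 to 216), the latter within the interval of precursor-like nuclei.

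KCNK13, a leak channel known from microglia, was raised in macrophage-like nuclei alone. It stood there at 280 CPM (225 to 344) from 89 UMIs in the wild type and at 84.3 CPM (47.2 to 139) from 15 UMIs in the knockout library, and its highest level in any other population was 13.5 CPM in Bowman gland-like wild type nuclei. A UMI of it was found in 43.8% and 10.4% of these 80 and 96 nuclei (median depths 2381 and 1363.5 UMIs), and in 0.797% and 1.11% of mature neuron-like nuclei. KCNIP1, a partner of KCND channels, was also raised in macrophage-like nuclei, at 88.0 CPM (58.5 to 127) and 44.9 CPM (19.4 to 88.6). A small fibroblast-like cluster, cluster 3 with 73 and 22 nuclei, had more of it, at 272 CPM (200 to 360) and 382 CPM (236 to 584). Wild type macrophage-like nuclei also had 157 CPM (117 to 207) of the neuronal KCNK10, against 67.4 CPM (34.8 to 118) in the knockout library. In the same nuclei the 12 immature neuron markers summed to 2775 and 1062 CPM, with 0 and 1 of them at 0, against 583 and 483 CPM in sustentacular-like nuclei. The part of that neuronal RNA in the level of KCNK10 was not tested.

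KCNK1, a weakly conducting leak channel, was spread over epithelial cells without meeting the rule. It was highest in microvillar-like nuclei of the wild type library, at 153 CPM (112 to 205), and in nasal gland-like nuclei of the knockout library, at 142 CPM (98.1 to 200), and lowest in mature neuron-like nuclei of the wild type library, at 6.21 CPM. KCNK5, an acid-sensitive channel of epithelia, reached 21.2 CPM in Bowman gland-like nuclei of the wild type and 50.7 CPM in glia-like nuclei of the knockout library. KCNK3 had 5 UMIs in wild type pericyte-like nuclei, at 70.6 CPM (22.9 to 165), and none in those of the knockout library, where 3 UMIs would be 34.0 CPM. KCNK6, KCNK9 and KCNK12 had 30, 45 and 152 UMIs, and their highest levels were between 1.99 and 21.6 CPM.

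The inward rectifiers of the KCNJ family pass potassium more readily into the cell than out of it. KCNJ10, the classical glial channel for potassium uptake, was raised in glia-like nuclei alone, at 39.3 CPM (22.01 to 64.9) and 39.1 CPM (22.8 to 62.7) from 15 and 17 UMIs. KCNJ16, which pairs with KCNJ10 in kidney and glia, was at 5.24 and 2.30 CPM in those glia and highest in ciliated-like nuclei, at 21.0 CPM (5.71 to 53.7) from 4 UMIs and 38.3 CPM (30.9 to 47.0) from 91 UMIs. KCNJ2 was highest in Bowman gland-like nuclei in both libraries, at 187 CPM (152 to 228) and 148 CPM (111 to 193), with 133 and 103 CPM in mature neuron-like nuclei. KCNJ15 was also highest in Bowman gland-like nuclei in both, from 10 and 5 UMIs, at 19.3 and 13.7 CPM. KCNJ8, the pore of vascular ATP-sensitive channels, was highest in pericyte-like nuclei in both, from 8 and 3 UMIs, at 113 CPM (48.8 to 223) and 34.0 CPM (7.01 to 99.4), and missed the rule for want of UMIs. KCNJ6 reached 14.4 and 8.63 CPM, and KCNJ5 2.62 and 7.52 CPM.

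KCNJ13 had the most UMIs of the family, 8309. In the wild type library its levels lay between 114 CPM in lymphatic endothelial-like and 268 CPM in pericyte-like nuclei. In the knockout library they lay between 93.0 CPM in Bowman gland-like and 315 CPM in cluster 22 nuclei. The gene lies inside GIGYF2, a widely expressed gene whose levels lay between 89.1 and 258 CPM and between 154 and 341 CPM. Reads of the 2 genes cannot be told apart without strand, and the values of KCNJ13 are uncertain.

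Among the auxiliary genes, KCNAB1, a cytoplasmic partner of KCNA channels, was raised in pericyte-like nuclei, the mural cells of vessels, at 1186.5 CPM (946 to 1469) in the wild type and 1428 CPM (1190 to 1701) in the knockout library. Nasal gland-like nuclei followed with 677 CPM (603 to 756) and 894 CPM (776 to 1024). KCNAB1 overlaps SSR3, whose level in pericyte-like nuclei of the wild type library, 98.9 CPM, was its lowest. KCNRG, a regulator of channel assembly, was raised in ciliated-like nuclei, at 31.4 CPM (11.5 to 68.4) and 32.8 CPM (26.0 to 41.0) from 6 and 78 UMIs, and overlaps TRIM13. KCNE3, the partner of KCNQ1 in secretory epithelia, was highest in cluster 22 in both libraries, from 3 and 27 UMIs, at 21.6 and 22.8 CPM, and stood at 15.4 CPM (6.67 to 30.4) and 10.9 CPM (2.98 to 28.0) in the Bowman gland-like nuclei that carried KCNQ1.

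KCNIP4, which overlaps PACRGL, was highest in immature neuron-like nuclei in both libraries, at 108 CPM (99.0 to 117) and 139 CPM (123 to 156). KCNAB2 was highest in neurons, at 44.9 CPM in mature nuclei of the wild type and 41.4 CPM in immature nuclei of the knockout library. KCNIP2 did not exceed 14.4 and 16.4 CPM, and KCNAB3 did not exceed 5.13 and 7.52 CPM. Of the 67 genes, 65 were found in the RefSeq table for Sscrofa11.1, 13 overlapped a protein-coding gene there and 3 lay wholly inside one, and these overlaps include those of KCNN3 with PMVK and KCNJ2 with an unnamed gene.

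**Figure D3:**
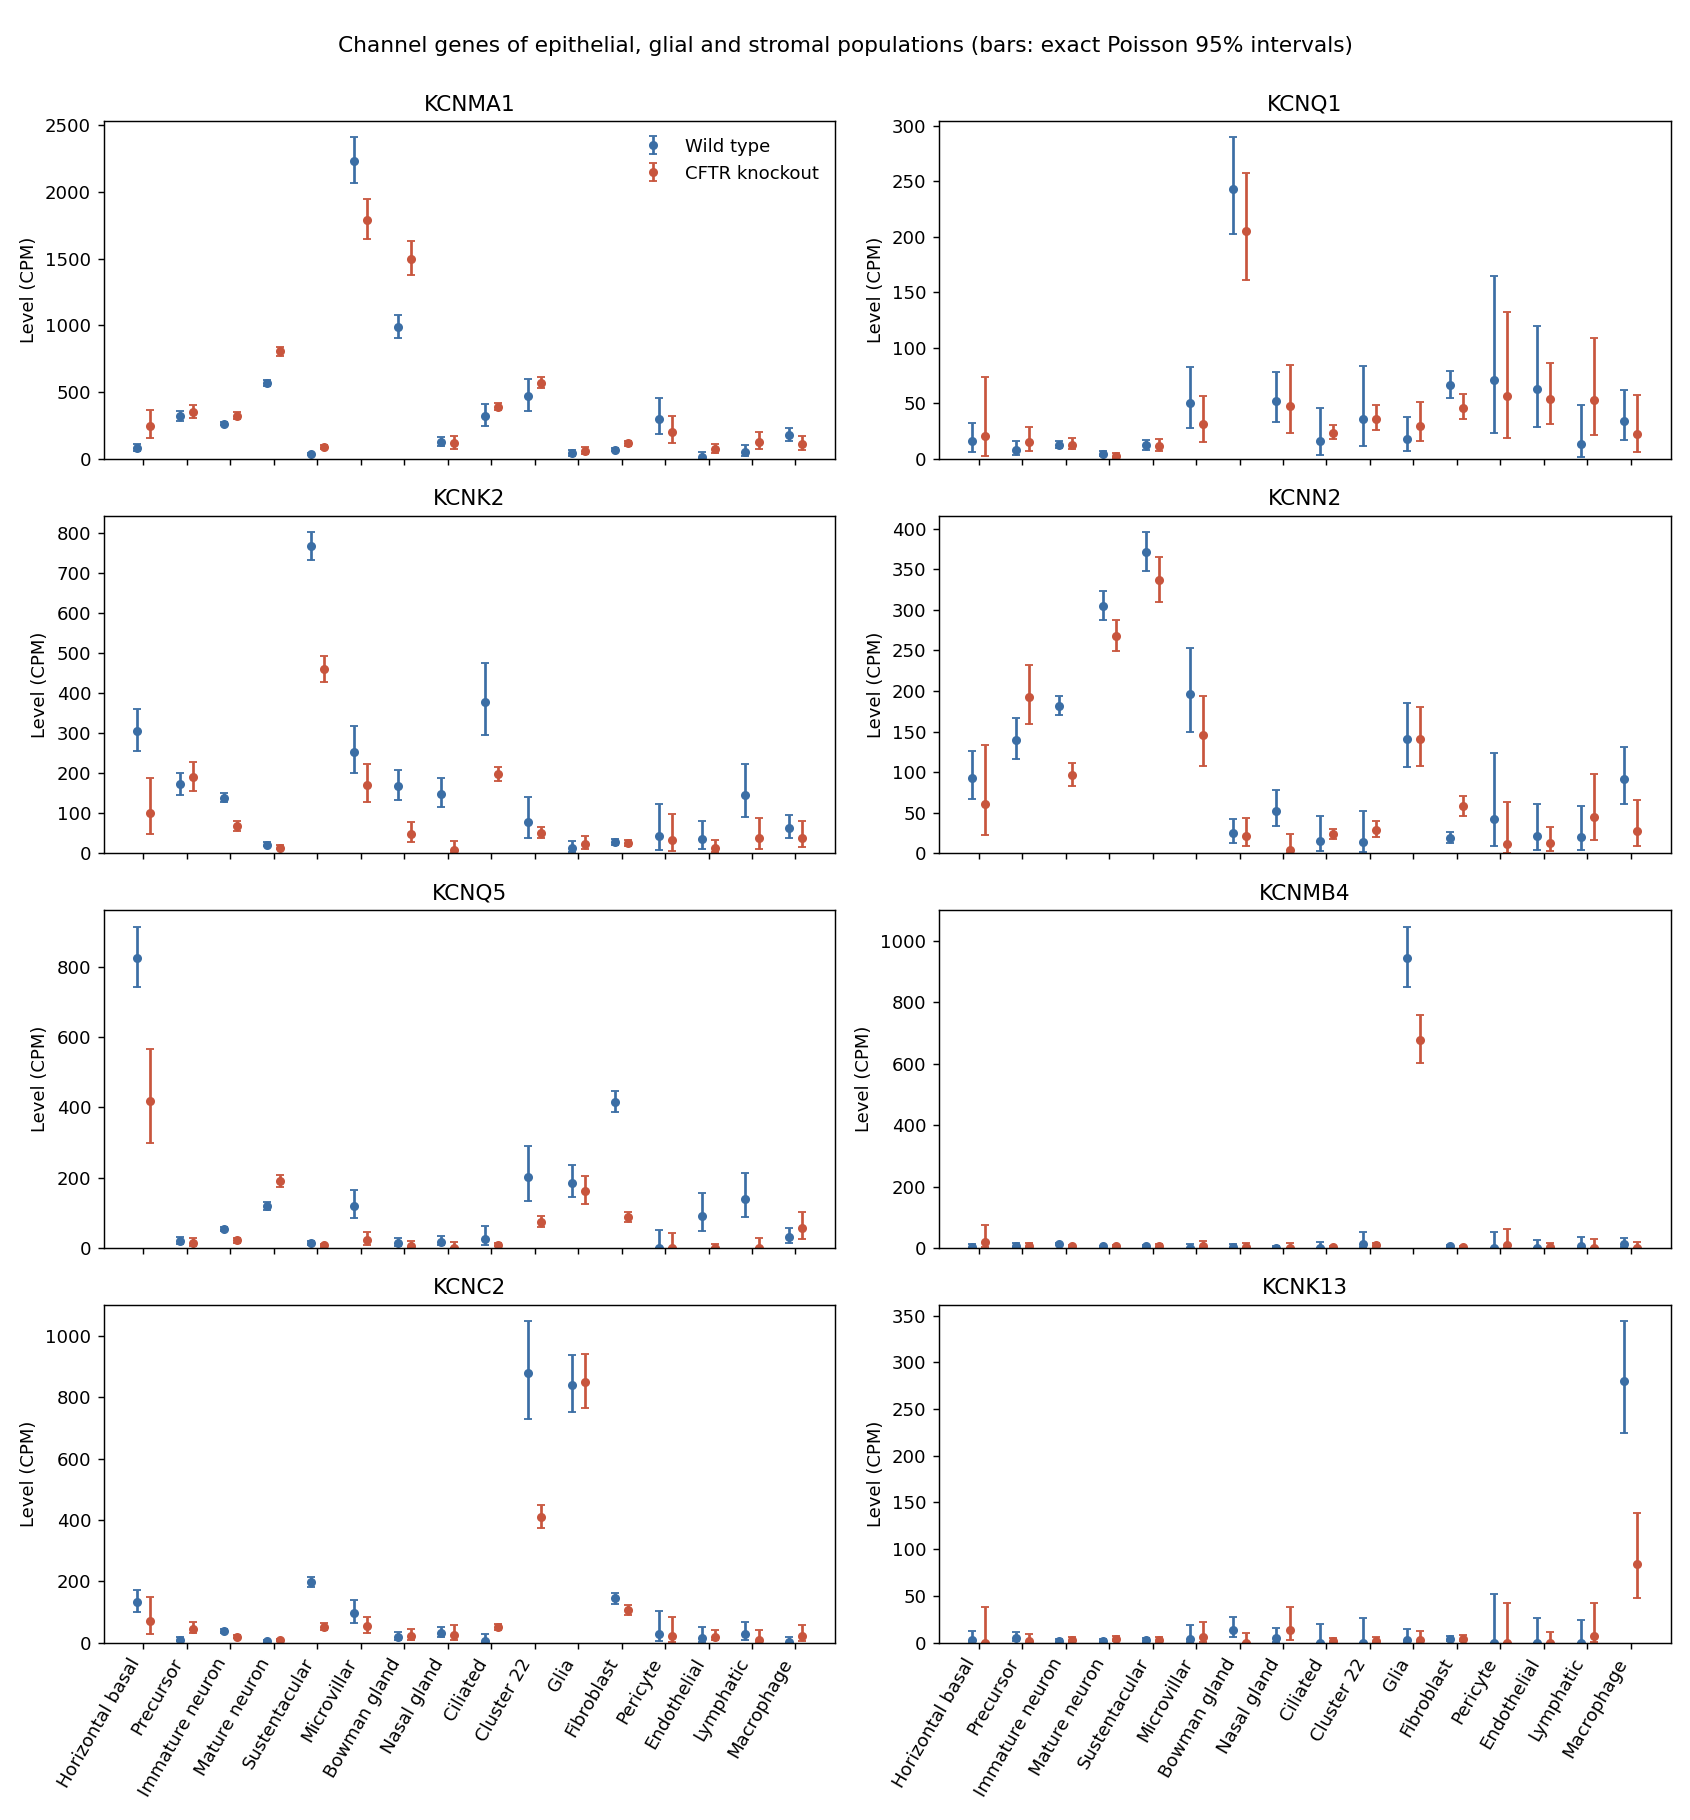
Level in CPM (vertical axes, starting at 0) of 8 channel genes in the 16 populations (horizontal axis), with 1 point per library (blue wild type, red CFTR knockout) and exact Poisson 95% intervals. KCNMA1 peaked in microvillar-like and Bowman gland-like nuclei, KCNQ1 in Bowman gland-like nuclei, KCNK2 and KCNN2 in sustentacular-like nuclei, KCNQ5 in horizontal basal-like nuclei, KCNMB4 and KCNC2 in glia-like nuclei and KCNK13 in macrophage-like nuclei.

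Over all nuclei, most of the 67 genes were lower in the knockout library than in the wild type library. Their median log2 ratio of CPM, knockout over wild type, was -0.36, against 0.10 over all 16259 genes, and 46 of the 67 (68.7%) were below 0, against 40.0% of all genes. With every population given the same weight the median was -0.17, with 39 of 67 (58.2%) below 0. For all genes the median was then 0.08, with 42.1% below 0. Since the neuronal populations made up a smaller part of the knockout library, and a nucleus with less RNA of a gene and fewer nuclei that carry it cannot be told apart in these sums, ratios were also computed within populations.

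By more than 2-fold, 6 genes were higher in the knockout library, where 7.04% of all genes were, and 7 were lower, where 3.13% of all genes were. With TMM scaling these counts were 5 and 9. That scaling shifted the log2 ratio of every gene, channel gene or not, by -0.098, and the shares of all genes are not given for it. The 6 were KCNG2, KCNE3, KCNRG, KCNA1, KCNG3 and KCNJ16, and 3 of them (KCNG2, KCNG3 and KCNJ16) remained past 2-fold when ciliated-like nuclei and cluster 22, 8.002% and 7.55% of the knockout but 0.705% and 1.01% of the wild type nuclei, were left out. KCNJ16 had 15 UMIs in the wild type and 156 in the knockout library, a ratio of 11.8 (6.97 to 21.7), and its log2 ratio of 3.57 was 1.73 with equal population weights. KCNRG had a ratio of 2.30 (1.64 to 3.26), and its log2 ratio of 1.20 was -0.42 without those 2 populations. The ratio was 2.71 (1.80 to 4.18) for KCNG3, 2.39 (1.53 to 3.83) for KCNA1 and 2.23 (1.55 to 3.24) for KCNE3. KCNG2 had 8 and 15 UMIs, and the interval of its ratio, 2.14 (0.850 to 5.82), held 1.

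The 7 lower genes were KCNK3, KCNH5, KCNN1, KCNK9, KCND2, KCNK13 and KCNQ3. KCNH5 had 262 and 74 UMIs, or 0.322 (0.245 to 0.418) as a ratio of CPM. On the log2 scale this was -1.64, and -1.61 when populations had equal weights. KCNN1 had 294 and 98 UMIs, a ratio of 0.380 (0.299 to 0.479). KCND2 had 2042 and 849 UMIs, a ratio of 0.474 (0.437 to 0.513), and its log2 ratio was -1.08, or -0.72 with equal weights. The ratio of KCNK13 was 0.488 (0.351 to 0.671) and that of KCNQ3 0.492 (0.321 to 0.740). KCNK3 had 16 and 4 UMIs and KCNK9 had 32 and 11. Some genes with many UMIs lay closer to 1. KCNMA1 had 317 and 427 CPM, a ratio of 1.35 (1.30 to 1.40), KCNAB1 186 and 185 CPM, and KCNQ1 26.4 and 26.5 CPM with a ratio of 1.00 (0.876 to 1.15).

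**Figure D4:**
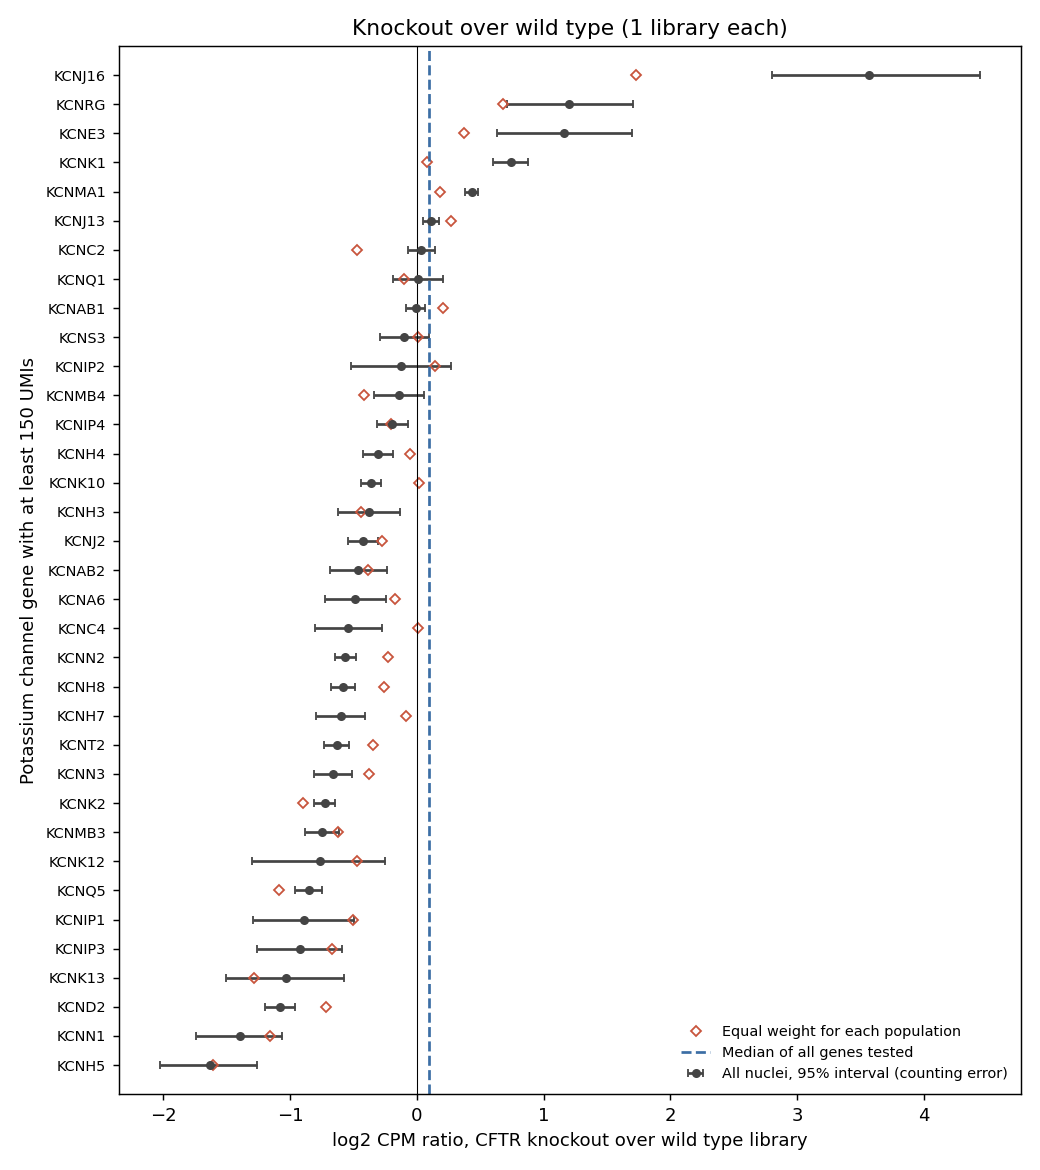
Log2 ratio of CPM, knockout over wild type library, for the 35 channel genes with at least 150 UMIs (vertical axis), over all nuclei (grey points with 95% counting intervals) and with equal weight for each population (red diamonds). The dashed line is the median of all genes, 0.10. KCNJ16 stands at 3.57, KCNH5 at -1.64, and 29 genes lie to the left of the line and 6 to the right.

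Within the 7 populations with at least 100 nuclei in each library, ratios were computed for channel genes with at least 20 UMIs there. Past 2-fold lay 27 of the 164 pairs of gene and population. In mature neuron-like nuclei 1 of 38 genes was higher (5.09% of all genes there were) and 3 were lower (3.17%). The median log2 ratio was -0.30, against 0.07 for all genes. KCNH5, at 50.3 and 13.4 CPM, had a ratio of 0.267 (0.183 to 0.380). Its level was lower in the knockout library in cluster 5 (52.3 and 25.0 CPM) and in cluster 6 (28.4 and 12.3 CPM), with overlapping intervals in each. KCND2 had a ratio of 0.487 (0.389 to 0.605), but the intervals of the libraries overlapped within each cluster. Its levels were 88.1 CPM (78.3 to 98.6) and 54.1 CPM (28.8 to 92.5) in cluster 5, and 25.3 CPM (10.9 to 49.8) and 38.9 CPM (31.7 to 47.3) in cluster 6. KCNRG, with 17 and 6 UMIs, had an interval that held 1. KCNK1 was the higher gene, at 6.21 and 17.3 CPM with a ratio of 2.78 (1.66 to 4.79). KCNQ5 had 118 and 191 CPM there, a ratio of 1.61 (1.42 to 1.83), and KCNN1 a ratio of 0.528 (0.385 to 0.715). The values of KCNK1, KCNQ5 and KCNN1 pool clusters 5 and 6. Cluster 5 held most wild type and cluster 6 most knockout nuclei of the class.

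In immature neuron-like nuclei 1 of 34 genes was higher (2.72% of all genes) and 3 were lower (8.09%), with a median of -0.09 against 0.02. The lower genes were KCNQ5 with 53.5 and 21.4 CPM, a ratio of 0.401 (0.284 to 0.555), KCNK2 and KCNMB4. Cluster 2 held 288 of the 911 wild type but 89 of the 559 knockout nuclei, and cluster 10 the others. KCNQ5 stood at 85.7 CPM (74.6 to 97.9) and 34.6 CPM (18.4 to 59.1) in cluster 2, and at 21.5 CPM (16.1 to 28.0) and 18.4 CPM (12.4 to 26.3), with overlapping intervals, in cluster 10. KCNK2 had 139 and 67.8 CPM, a ratio of 0.487 (0.402 to 0.586). Its levels were 222 and 112 CPM in cluster 2 and 56.5 and 57.7 CPM in cluster 10. KCNMB4 had 17.2 CPM (12.5 to 23.2) and 5.32 CPM (0.644 to 19.2) in cluster 2, and 5.96 and 5.52 CPM in cluster 10. The log2 ratio of KCNK2, -1.04, was above 0 under 3 other clusterings, and that of KCNMB4, from 58 and 11 UMIs, under 1. At resolution 2, 113 nuclei from the wild type and 7 from the knockout library formed a deep cluster outside all populations. Its median depth was 11445.5 UMIs. Its top genes included THSD7B and MARCHF1, as in cluster 2, and ABCA13 and ATP13A5, as in sustentacular-like cluster 0. The cluster that shared the markers TEX15 and PURG with cluster 2 then held 181 and 85 nuclei. The part of such deep nuclei in the ratios of KCNK2, KCNN2 and KCNQ5 here was not tested. KCNK10 was at 331 and 444 CPM, a ratio of 1.34 (1.23 to 1.45).

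In precursor-like nuclei 1 of 20 genes was higher (4.23% of all genes), KCNC2 with 8 and 27 UMIs and a ratio of 5.10 (2.25 to 12.98). The 1 lower gene (3.42%) was KCNIP3, with a ratio of 0.463 (0.277 to 0.747). The median of the 20 was 0.14, against 0.06 for all genes.

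Sustentacular-like nuclei had the most channel genes past 2-fold, 3 of 24 higher (4.95% of all genes) and 5 lower (3.67%), around a median of -0.01 against 0.10. Cluster 0 held most of these nuclei in the wild type library (578 against 223) and cluster 1 most in the knockout library (377 against 171). KCNC2 had 197 CPM (180 to 215) and 50.9 CPM (40.9 to 62.6), a ratio of 0.259 (0.204 to 0.325), with 238 and 88.8 CPM in cluster 0 and 46.8 and 27.7 CPM in cluster 1. KCND2 had a ratio of 0.384 (0.313 to 0.469), with 200 and 132 CPM in cluster 0 and 137 and 34.1 CPM in cluster 1. KCNAB2, KCNIP2 and KCNN3, the other lower genes, had between 16 and 33 wild type UMIs. KCNMA1 was higher, at 38.5 and 86.4 CPM with a ratio of 2.25 (1.73 to 2.93), and its levels were 33.0 and 60.2 CPM in cluster 0 and 58.1 and 102 CPM in cluster 1. KCNG3, from 10 and 34 UMIs, had a ratio of 4.80 (2.32 to 10.9), and KCNH7, from 12 and 26 UMIs, a ratio of 3.06 (1.49 to 6.66). KCNK2, the gene that led in these nuclei, had a ratio of 0.599 (0.551 to 0.651), with 798 and 646 CPM in cluster 0 and 654 and 345 CPM in cluster 1.

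In fibroblast-like nuclei 1 of 25 genes was higher (6.39% of all genes) and 4 were lower (4.85%). Cluster 18 held 290 of these nuclei in the wild type and 161 in the knockout library, cluster 16 held 412 and 637, and cluster 3 held 73 and 22. KCNQ5 had a ratio of 0.210 (0.173 to 0.253), and within cluster 18, with 714 of its 762 and 108 of its 134 UMIs, its levels of 1004 and 345 CPM lay closer together than in the pooled class, with intervals that did not overlap. KCNIP4 had 49.0 and 15.0 CPM, a ratio of 0.305 (0.184 to 0.487). Its levels were 58.0 CPM (43.7 to 75.5) and 16.3 CPM (9.79 to 25.4) in cluster 16, and 43.6 CPM (29.6 to 61.9) and 9.57 CPM (1.97 to 28.0) in cluster 18. KCNH8 had a ratio of 0.362 (0.159 to 0.752), and 16 of its 33 wild type UMIs were in cluster 3, where the knockout library had 0. In cluster 16 it stood at 9.50 CPM (4.34 to 18.0) and 7.70 CPM (3.52 to 14.6). KCNAB2, from 15 and 5 UMIs, had an interval that held 1. KCNN2 was higher, at 18.5 and 57.9 CPM with a ratio of 3.13 (2.08 to 4.79), and stood at 20.0 and 63.3 CPM in cluster 16. The median of the 25 was -0.20, against 0.06 for all genes.

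Glia-like nuclei had 1 of 14 genes higher (8.53% of all genes), KCNK5 with 5 and 22 UMIs and a ratio of 3.86 (1.43 to 13.1), and 1 lower (3.71%), KCNS3 with a ratio of 0.482 (0.293 to 0.779). Their median was 0.02, against 0.10 for all genes. KCNMB4 had a ratio of 0.717 (0.613 to 0.839) in glia, and KCNC2 of 1.01 (0.867 to 1.18). In Bowman gland-like nuclei none of 9 genes was higher (7.22% of all genes) and 2 were lower (5.12%). These were KCNK2, at 168 and 49.2 CPM with a ratio of 0.293 (0.166 to 0.491), and KCNH8, with a ratio of 0.443 (0.194 to 0.923). The medians of KCNK2 over the populations were 143 and 44.3 CPM, so its lower level was not seen in Bowman gland-like nuclei alone. KCNMA1 had a ratio of 1.52 (1.35 to 1.72) and KCNQ1 of 0.843 (0.625 to 1.13), and the median of the 9 was -0.25, against 0.06 for all genes.

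Other genes that handle potassium were taken from a list of channel partners, pumps, cotransporters and organelle channels. Of 42 listed, 33 had at least 20 UMIs and 14 were raised in 1 or more populations, where 18.9% of all genes were. Over all nuclei the log2 ratio was above 0 for 17 of the 33 and below for 16, where 40.0% of all genes were below. By more than 2-fold SLC12A1 was higher (7.04% of all genes were), and CNTNAP2 and TMEM175 were lower (3.13%). DPP10, a membrane partner of KCND channels, was raised in sustentacular-like nuclei, at 1095 and 1113 CPM, and its relative DPP6 in mature neuron-like nuclei, at 86.2 and 90.7 CPM. ABCC9, the regulatory subunit that pairs with KCNJ8, was highest in pericyte-like nuclei in both libraries, as KCNJ8 was, at 734.5 and 397 CPM. LGI1, a secreted ligand of channel complexes, stood at 218 and 177 CPM in glia-like nuclei. SLC12A2, which loads chloride into secreting cells together with sodium and potassium, was highest in microvillar-like nuclei in both libraries, at 603 and 490 CPM, as KCNMA1 was.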

How the data were processed

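Single-nucleus libraries of 1 wild type and 1 CFTR knockout piglet were analysed, grouped by the genotype label. The authors deposited raw UMI counts per gene and barcode, 4715 wild type barcodes with 18731495 UMIs and 6054 knockout barcodes with 16623086 UMIs; a table was matched to its sample by the library name that ends the sample title. Per the submitters' processing notes, Cell Ranger, Seurat 4.0 and R 4.0.2 were used, with no role given (aligner, genome build and strand not given in the sources used here). The channel genes and gene lists were chosen with earlier results of these data known.

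Nuclei with under 200 genes were removed (1 nucleus). Scrublet called 1 and 3 doublets and had not worked, so the 178 and 293 nuclei with the highest scores were removed (0.8% per 1000 nuclei). Clustering (scanpy 1.11.5, Leiden, resolution 1, 2000 variable genes, 30 components, 15 neighbours) used no KCN gene, CFTR or mitochondrial transcript. Marker lists of 23 cell types gave the names, for which a cluster needed 3 raised markers and 0.333 of its library's median depth. Classes needed 20 nuclei in each library, and 100 for ratios within them. UMIs were summed as CPM with exact Poisson intervals, shares with Clopper-Pearson intervals, and ratios with exact conditional binomial intervals, all at 95% and covering counting error only. No test was run, since each genotype had 1 library. Shares are of all nuclei of a population at their own depth, except where called thinned. For thinned shares, nuclei with at least 1000 UMIs were each thinned to 1000. The calculations were tested on simulated data. Genes named in full were the 12 with most UMIs, the 3 most raised per population, the 5 highest and 5 lowest ratios among genes with at least 50 UMIs and the leading member of each family; others are given by their highest population. TMM factors came from edgeR 4.0.16. Rows that carry only an Ensembl identifier were outside the rule. Some members enter the counts and medians but are not reported here by name.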

Additional observations from a re-analysis of the deposited data

Results flagged for a closer look

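Some genes differed in opposite directions between the libraries in different populations, with intervals that left out 1 in both. None of these differences was itself tested, and each rests on 1 library per genotype. The log2 ratio, knockout over wild type, of KCNC2 was 2.35 in precursor-like and -1.95 in sustentacular-like nuclei. That of KCNH7 was 1.614 in sustentacular-like and -0.5475 in mature neuron-like nuclei. KCNH8 had 0.8731 in sustentacular-like and -1.467 in fibroblast-like nuclei, and KCNIP4 had 0.6216 in precursor-like and -1.712 in fibroblast-like nuclei. Many of the wild type KCNH8 UMIs in fibroblast-like nuclei lay in the small cluster 3, and in cluster 16 the intervals of the libraries overlapped. KCNN2 had 1.644 in fibroblast-like and -0.9129 in immature neuron-like nuclei. KCNQ5 had 0.6874 in mature neuron-like and -2.252 in fibroblast-like nuclei. Where a class held more than 1 cluster, its ratio pools clusters whose shares differed between the libraries.

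A signal also appeared in 5 rows that carry only an Ensembl identifier and were therefore not among the 67 genes, although the table of gene names gives them a KCN symbol. KCNMB2, a subunit of the large-conductance channel, had 1194 UMIs, KCNH1 had 410, KCNJ3 had 151, KCNE1 had 40 and KCNA3 had 29. KCNH1, a voltage-gated channel of the ether-a-go-go type, was highest in microvillar-like nuclei in both libraries, at 197 and 261 CPM, against medians of 5.89 and 5.22 CPM over the populations. KCNMB2 was highest in precursor-like nuclei of the wild type library, at 77.9 CPM, and in mature neuron-like nuclei of the knockout library, at 78.4 CPM. KCNJ3 was highest in ciliated-like nuclei in both, at 21.0 and 18.1 CPM.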

How the results depend on the processing

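The count of raised genes, 24, was 41 with a fold of 2, 11 with a fold of 8 and 13 with 20 CPM added, and between 19 and 26 under the other alternatives. With doublets kept, 27 of 38 raised pairs of gene and population were found again. Thinning to 1000 UMIs took 73 shares of nuclei with a UMI of a raised gene outside their interval and left 5 inside. The pairs past 2-fold, 27, numbered 51 at resolution 0.5, where more pairs were measured (202 against 164). The median log2 ratio was -0.17 with equal population weights. The genes higher by 2-fold, 6, were 12 with no UMI minimum, where more rows were measured, and 3 without ciliated-like nuclei and cluster 22. That last alternative, and the one without KCNQ1OT1, were chosen after seeing the data. Opposite in sign were KCNK2 in immature neuron-like nuclei, at 0.1436 at resolution 2, 0.0907 with doublets kept and 0.2950 with each library clustered alone, KCNMB4 there, at 0.1382 with each library alone, and KCNRG over all nuclei, at -0.4229 without ciliated-like nuclei and cluster 22. The cause was not tested. No paired analysis was possible because each genotype had 1 library. Populations of under 60 nuclei in a library limit the levels of sparse genes there.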
